A study of Mus musculus with 14 samples.

Results

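The mitosis and cytokinesis genes are 47 genes of late cell division, chosen by name: the kinases and cyclins of the G2/M transition, the spindle checkpoint, the kinetochore, the spindle and its motor proteins, chromosome condensation, and the division of the cytoplasm. Earlier results of these data were known when the genes were chosen. They are 47 of the 54446 genes in the count table, and all 47 passed the filter on low counts that left 17987 genes for testing. The 6 cytokinesis members, Anln, Ect2, Racgap1, Prc1, Kif23 and Aurkb, are described apart from the other members. RNA was sequenced from heart nuclei of wild-type ICR mice, an outbred stock, after enrichment for nuclei that carry PCM1, a protein used to select those of cardiomyocytes. Viruses were AAV9 vectors in which the cTnT promoter, active in cardiomyocytes, drove the transcription factor hMEF2A or YAP5SA, a form of the coactivator YAP that escapes inhibition by the Hippo pathway. The groups were Control (5 libraries, no virus), MEF2A (4), YAP5SA (3) and YAP5SA_MEF2A (2, both viruses), with 1E11 genome copies of each virus given into the abdomen at postnatal day 7 and hearts taken 5 days later, at day 12. No group received an empty vector, and whether libraries came from different animals is not in the labels; the p-values reflect only how far these libraries spread, which may be technical.

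A dividing cell raises CDK1-cyclin B activity to enter mitosis, condenses its chromosomes, attaches them to the spindle through kinetochores, and waits at the spindle checkpoint until each is attached. Aurora B and its partners then move to the central spindle, where the centralspindlin proteins KIF23 and RACGAP1 and the RhoA activator ECT2 set up the contractile ring that splits the cell. Mouse cardiomyocytes largely leave the cell cycle in the first weeks after birth, and their last rounds often end without cytokinesis, which leaves cells with a pair of nuclei. Transcripts of these genes are found mostly in cells in S, G2 or M phase, so in bulk nuclei their level depends on how many nuclei are cycling as well as on the RNA of each.

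The libraries held 16171068 to 24027622 counts, and the lowest count of any member in any library was 6. Mitochondrially encoded genes took 60.7% of counts in Control 1, 67.5% in Control 2 and 32.2% in YAP5SA 3, against 3.80% to 23.2% in the other libraries. The 11 cardiomyocyte markers were detected in every library and summed to 30301 to 97279 CPM (counts per 1E6, on TMM-scaled library totals), against 168 to 697 CPM for 8 endothelial markers. Sums of 8 fibroblast markers ran from 984 to 2599 CPM. Mural cell markers (6) summed to 337 to 512 CPM and lymphocyte markers (6) to 9.64 to 97.4 CPM. By group the cardiomyocyte sum ran from 55018 to 97279 CPM in Controls, 89554 to 95828 in MEF2A, 30301 to 45575 in YAP5SA and 43109 to 48105 with both viruses. Of 8 macrophage markers, which summed to 734 CPM in YAP5SA 3 and to at most 161 CPM elsewhere, Adgre1, Fcgr1 and Cd163 had 0 counts in some libraries. Judged by Xist against Y-linked genes, every YAP5SA library was from males and those with both viruses were from females, so sex and group cannot be told apart there. MEF2A 1, 2 and 3 were female and MEF2A 4 was male, so YAP5SA against MEF2A also mostly sets males against females. Controls 1, 2 and 3 were male and Controls 4 and 5 female. Both libraries with both viruses were in batch 1, and the other groups were in both batches. Exons of 11 members overlap a gene on the other strand, and because the libraries do not keep strand their counts are uncertain: Ccna2, Cdc20, Cdca8, Kif20a, Kif4, Ncapg, Nek2, Nusap1, Plk1, Prc1 and Ube2c. On the same strand, exons of Foxm1 overlap Tex52 (144 bases) and Gm44596 (97 bases), and those of Top2a overlap Gm23451 (122 bases).

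Summed over the 47 members, mitotic transcripts were lowest in the MEF2A hearts and in 1 of the Controls. The sum was 1572, 1144, 446, 2113 and 1451 CPM in Controls 1 to 5, and 692, 468, 849 and 685 CPM in MEF2A 1 to 4. It was 1372, 1195 and 1289 CPM in YAP5SA 1 to 3, and 1269 and 972 CPM with both viruses. Each YAP5SA library and each library with both viruses was above every MEF2A library, while the Controls ran from below the lowest MEF2A library to above all other libraries. In nuclei pooled from a heart, fewer cycling cells and less RNA per cycling cell cannot be told apart.

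The spread of the Controls lay in Control 3 and Control 4. Control 3 was the lowest Control in 44 of 47 members and the lowest of all 14 libraries in 21. Control 4 was the highest Control in 40 members and the highest library in 32. The ratio of Control 4 to Control 3 ranged over members from 1.72 to 29.7, with a median of 7.11. For 28 of 47 members the 5 lowest libraries were Control 3 and the 4 MEF2A libraries, a pattern that 1.29% of all genes tested showed. These 5 libraries were picked from the values of the same members, so the count describes the pattern and is no further support for it. Control 3 was not low in counts, at 23238128, and its cardiomyocyte sum of 97279 CPM was the highest of the 14 libraries. Its fibroblast sum of 984 CPM was the lowest of the 14. Erythroid markers summed to 164 CPM in Control 3 and to 334 to 457 CPM in the other Controls, and to 79.1, 60.1, 239 and 296 CPM in MEF2A 1 to 4. These markers summed to 84.7, 58.05 and 331 CPM in YAP5SA 1 to 3 and to 161 and 92.9 CPM with both viruses. The part of these values in the low mitotic level of Control 3 and of MEF2A was not tested. Members moved together across libraries: the median correlation of log2 CPM over the 1081 pairs of members was 0.825 over 14 libraries, and 0.784 after group means were taken off. These pairs share libraries and scaling, so the correlations are a description. Because members moved together, counts of members here and below are not counts of independent observations.

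**Figure D1:**
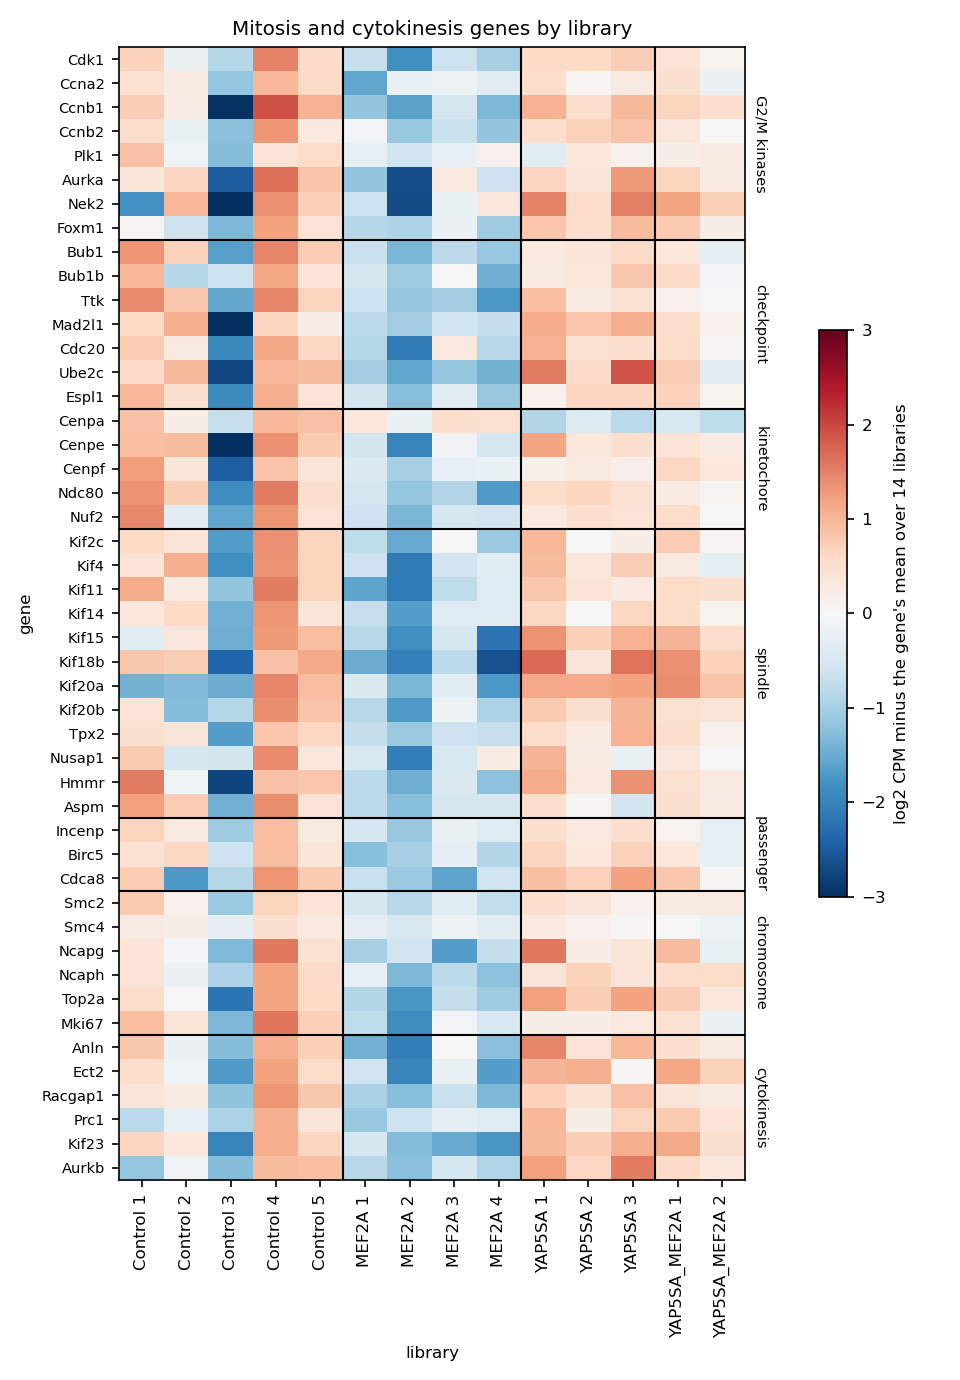
Each row is 1 of the 47 genes and each column a library, and colour gives the log2 CPM minus the gene's mean over the 14 libraries, with colours ending at 3 on either side. Control 3 and the 4 MEF2A columns are mostly blue, Control 4 is mostly red, and the Cenpa row stands apart in the YAP5SA columns.

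Promoters of the set are described next. Genes of this phase commonly carry a CHR element, a site near the transcription start through which DREAM and MYB-MuvB complexes act, and upstream CCAAT boxes bound by NF-Y. The RefSeq promoter table (GRCm38.p6, 250 bases before to 50 after each start) held 40 of the 47 members, and not Kif20a, Foxm1, Tpx2, Aurkb, Incenp, Smc4 or Ccna2. Searched on both strands, the CHR letters TTTGAA were in 31 of 40 member promoters (77.5%), against 5466 of 27025 genes in the table (20.2%). Within 50 bases of the start on either side, 28 of 40 members (70%) held them, against 5.72% of all genes. All 5 cytokinesis members in the table held the letters. The CCAAT letters were in 30 of 40 members (75%), against 41.1% of all genes. GGAATG, the letters of the TEAD motif through which YAP reaches DNA, were in 5 of 40 (12.5%), against 16.6%. These letter matches describe the sequences and are not measured binding sites.

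Below are 130 bases, from 100 before to 30 after the start, of 7 members whose values follow: the centralspindlin pair Kif23 and Racgap1, the midzone protein Prc1, Kif18b, whose fold change between YAP5SA and MEF2A hearts was the highest of the 47, the kinase Cdk1, Cenpa, the single member with a fold change below 0 there, and Ccnb1, with no TTTGAA. Capitals mark TTTGAA and CCAAT, the latter written ATTGG where it lies on the other strand. Kif23 lies at chr9:61946770-61946899 on the minus strand, Racgap1 at chr15:99651627-99651756 on the minus strand and Prc1 at chr7:80294351-80294480 on the plus strand. Kif18b lies at chr11:102925095-102925224 on the minus strand, Cdk1 at chr10:69352883-69353012 on the minus strand, Cenpa at chr5:30666786-30666915 on the plus strand and Ccnb1 at chr13:100786457-100786586 on the minus strand.
Kif23: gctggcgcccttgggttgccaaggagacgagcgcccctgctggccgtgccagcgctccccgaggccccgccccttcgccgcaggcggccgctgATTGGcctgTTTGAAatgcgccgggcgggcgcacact
Racgap1: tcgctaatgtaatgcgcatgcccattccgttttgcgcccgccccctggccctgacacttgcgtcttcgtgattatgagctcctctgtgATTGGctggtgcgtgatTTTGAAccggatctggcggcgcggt
Prc1: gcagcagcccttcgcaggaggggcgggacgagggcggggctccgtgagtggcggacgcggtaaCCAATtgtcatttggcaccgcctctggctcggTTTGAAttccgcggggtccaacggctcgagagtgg
Kif18b: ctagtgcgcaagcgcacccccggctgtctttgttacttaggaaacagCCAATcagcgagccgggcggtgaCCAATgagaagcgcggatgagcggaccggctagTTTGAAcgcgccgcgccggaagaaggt
Cdk1: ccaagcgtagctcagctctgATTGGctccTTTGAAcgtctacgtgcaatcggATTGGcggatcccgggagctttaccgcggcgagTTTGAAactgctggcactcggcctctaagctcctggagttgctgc
Cenpa: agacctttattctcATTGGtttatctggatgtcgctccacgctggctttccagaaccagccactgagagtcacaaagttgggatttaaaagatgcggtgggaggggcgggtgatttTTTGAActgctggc
Ccnb1: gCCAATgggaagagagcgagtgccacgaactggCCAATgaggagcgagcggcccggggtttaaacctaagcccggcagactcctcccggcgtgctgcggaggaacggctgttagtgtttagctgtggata
In Kif23, Kif18b and Racgap1 the TTTGAA began at base 3, 4 and 6 of the transcript, with ATTGG or CCAAT upstream of it. Cdk1 held TTTGAA at 71 and 15 bases before the start. Cenpa also held it, at base 17 of the transcript. The part of these letters in the members' levels was not tested.

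**Figure D2:**
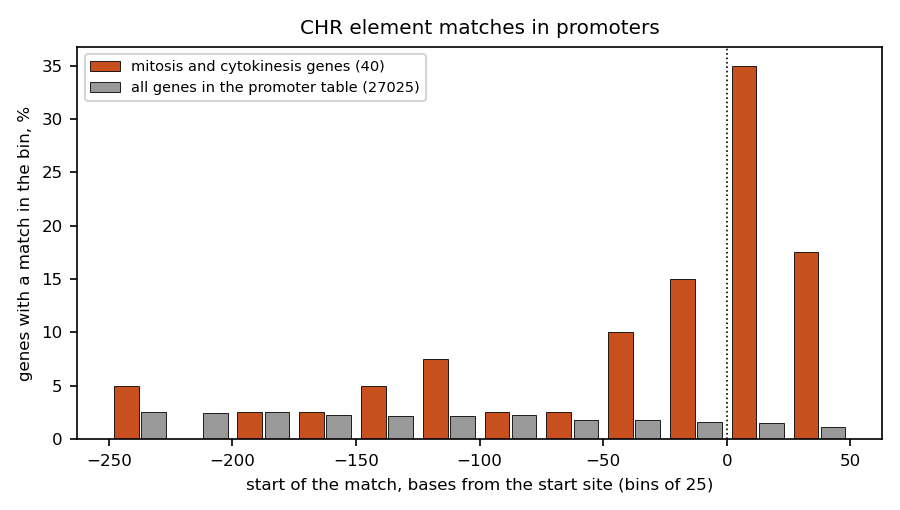
Bars give the percent of genes with TTTGAA, on either strand, that begins in each 25-base bin around the transcription start, for 40 of the genes described here and for 27025 genes of the promoter table. In the first 25 bases after the start 35% of the 40 genes had a match, against 1.54% of all genes.

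Whether mitotic genes differed with YAP5SA, MEF2A or both was asked with edgeR's quasi-likelihood F-test, with group and batch as terms, and adjusted p below is its Benjamini-Hochberg value over 17987 genes. Most members were higher in YAP5SA than in MEF2A hearts: 21 of 47 rose, 0 fell, and 46 had a log2 fold change above 0. Over all genes tested in that comparison 7.77% were called higher, 7.12% lower and 14.9% either way. The median log2 fold change was 1.5 over members and 1.93 over the cytokinesis members, against 0.08 over all genes. In 43 members every YAP5SA library was above every MEF2A library, which 15.9% of all genes showed; Plk1, Nusap1 and Aspm overlapped, and Cenpa was lower in every YAP5SA library. The calls came in each role but the kinetochore: 5 of 6 cytokinesis members, 2 of 3 passenger proteins, 6 of 12 spindle genes, 3 of 7 checkpoint genes, 3 of 8 G2/M regulators, 2 of 6 chromosome genes and 0 of 5 centromere and kinetochore genes. These 21 members were picked as higher in the same libraries. Their 588 fold changes under the 28 alternative settings, all above 0, are therefore no further support. The count of calls rested on single libraries. It was 1 without YAP5SA 3 (Aurkb), 6 without YAP5SA 1, and 13, 8, 12 and 8 without MEF2A 1, 2, 3 and 4. Without Control 3 it was 41, of which 40 were higher and 1 lower. Of all genes 4.76% were called without YAP5SA 3 and 6.84% without YAP5SA 1. The share was 9.69% to 10.3% without a MEF2A library and 18.8% without Control 3. Aurkb held its call without each single library. The number of libraries any of which lost the call was 1 to 4 for Birc5, Cdk1, Kif15, Kif18b, Kif20b, Kif23, Racgap1, Top2a and Ube2c, 5 for Anln, Cdca8, Foxm1, Kif11 and Kif20a, and 6 to 11 for the rest. With a sex term 24 of 47 members were called, all higher, with a median of 1.85 and 13.4% of all genes called. Kif11 and Mad2l1 were not among these 24. Beside this, the cardiomyocyte marker sum was lower in every YAP5SA than in every MEF2A library. Macrophage markers summed to 74.5 to 734 CPM in YAP5SA and 52.6 to 81.6 CPM in MEF2A. Fibroblast markers summed to 1225 to 2599 CPM in YAP5SA and 1066 to 1616 CPM in MEF2A, with 3 of 8 called higher (37.5%) and 0 lower. The part of these markers in the result was not tested. Within batch 1 alone 21 members were called, with a median of 1.66 and 4.1% of all genes called, and within batch 2, with 1 YAP5SA library, 0 were, with a median of 1.36 and 13.6% of all genes called.

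Against Controls, Cenpa was the single member that passed the test with either virus alone. In MEF2A hearts all 47 members had a log2 fold change below 0, from -2.17 (Kif18b) to -0.28 (Cenpa), with a median of -1.28, against 0.02 over all genes. edgeR called 0 of them, where 0.0167% of all genes were called. At an unadjusted p under 0.05, 38 of 47 members were lower (80.9%), against 3.85% of all genes, and 0 were higher, against 3.42%. DESeq2 called 10, with 0.467% of all genes called, while limma-voom called 0. No member's MEF2A libraries all lay below every Control (0 of 47, against 0.945% of all genes). Without Control 3, 27 of 47 were called lower, with 0.571% of all genes called. Batch 1 alone gave 17 calls, with 2.96% of all genes called, and a median of -1.52, and batch 2 alone, which holds Control 3, gave 0, with 0.113% of all genes called, and -1.01. In YAP5SA hearts the median against Controls was 0.18, against 0.06 over all genes, and 1 of 47 members was called, Cenpa, which fell, where 9.86% of all genes were called, 5.69% higher and 4.17% lower. No member's YAP5SA libraries lay all above or all below the Controls (0 of 47, against 8.51% and 5.13% of all genes). The cytokinesis median was 0.57, with 0 of 6 called by edgeR and 1, Aurkb, at an unadjusted p under 0.05. Aurkb was called higher by DESeq2 (1.24, DESeq2 adjusted p = 0.033), and by edgeR with library totals, with no filter on low counts, without Control 4 and with a sex term, and was not called by limma-voom (1.35, adjusted p = 0.075). With the sex term 4 of 47 members were called, where 11.8% of all genes were called. They were Aurkb, Foxm1, Kif15 and Kif20a, all higher, and Cenpa was not among them. Both comparisons share the 5 Controls and are read side by side only. Scaling by library totals alone moved the median of all genes to 0.69 in YAP5SA against Control, 0.21 in MEF2A against Control and 0.51 in YAP5SA against MEF2A, and that of the members to 0.82, -1.11 and 2.01.

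**Figure D3:**
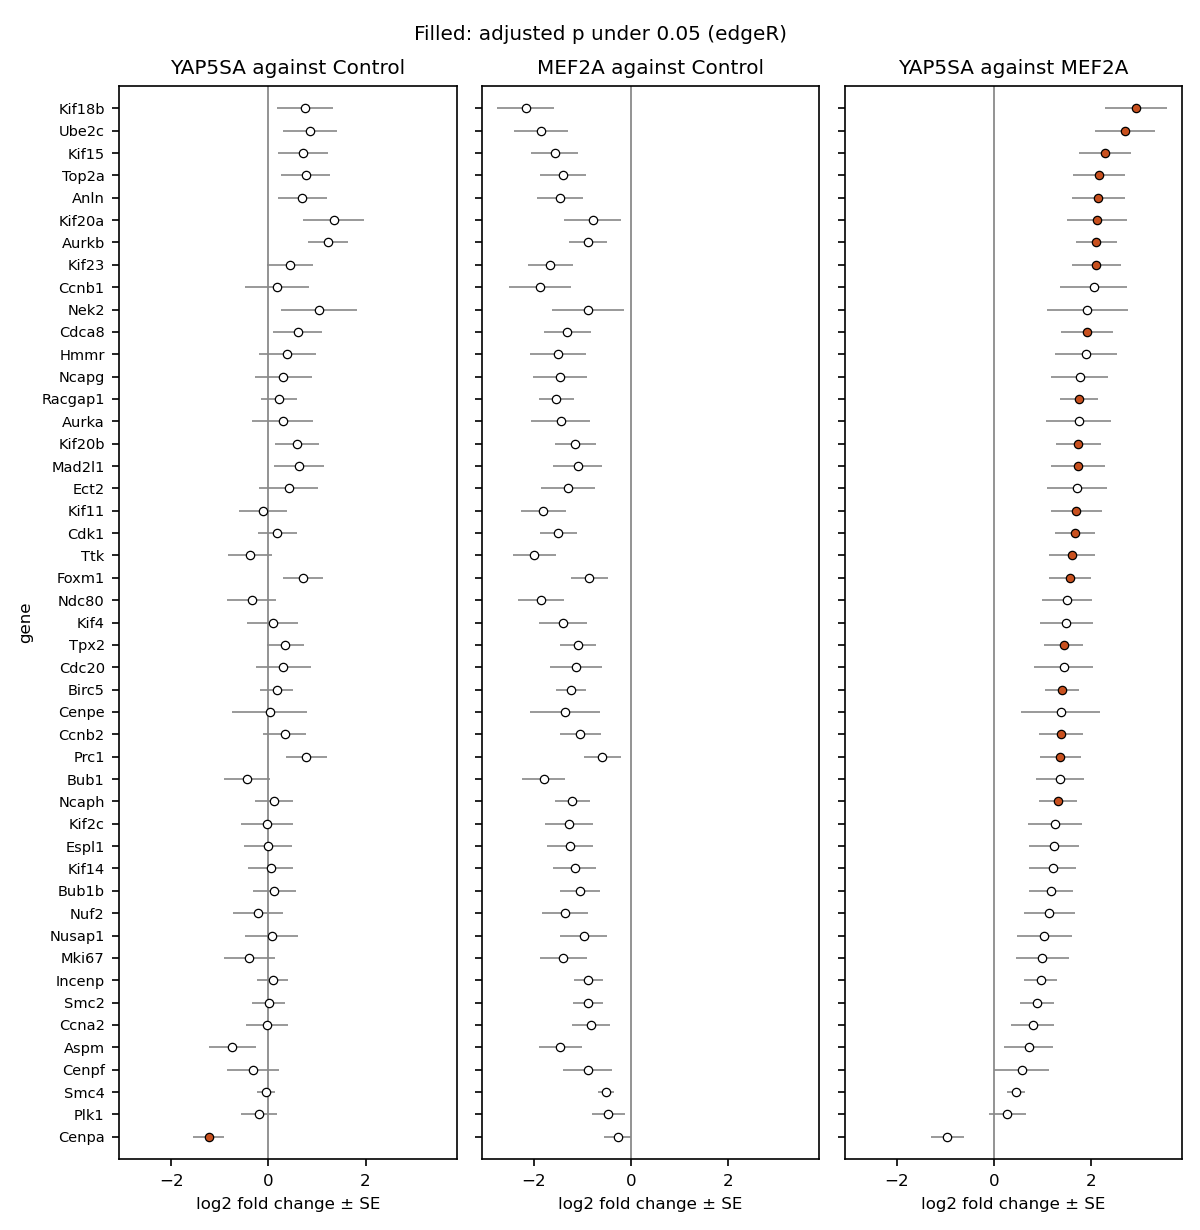
Points are log2 fold changes of the 47 genes with SE bars, for YAP5SA against Control, MEF2A against Control and YAP5SA against MEF2A, in the order of the last, and filled points have an edgeR adjusted p under 0.05. All points of the middle panel lie left of 0, and 21 points of the right panel are filled, all to the right of 0.

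The cytokinesis members summed to 145, 109, 38.9, 241 and 171 CPM in Controls 1 to 5, 61.0, 36.5, 80.2 and 42.1 CPM in MEF2A 1 to 4, 225, 177 and 183 CPM in YAP5SA 1 to 3 and 194 and 149 CPM with both viruses. The YAP5SA sums were all above the MEF2A sums, and within the range of the Controls. Per kilobase of exon, Ect2 was the most abundant of the 6, at 8.68 CPM per kb in Controls and 11.6 in YAP5SA, and Prc1 the least, at 0.799 and 1.18.

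Anln encodes anillin, the scaffold that binds actin, myosin and septins in the contractile ring (ENSMUSG00000036777, chr9:22332012-22389188, GRCm38). Its level was 33.4, 17, 7.71, 40.9 and 31.2 CPM in Controls 1 to 5, 7.08, 4.49, 19 and 7.96 CPM in MEF2A 1 to 4, 52.6, 25.4 and 37.8 CPM in YAP5SA 1 to 3 and 27 and 23 CPM with both viruses. Every YAP5SA library was above every MEF2A library, and Control 3 lay among the MEF2A values. Group means were 26 ± 13.4 (SD, n = 5), 9.63 ± 6.42 (n = 4), 38.6 ± 13.6 (n = 3) and 25 ± 2.8 (n = 2). Anln rose by a log2 fold change of 2.16 ± 0.55 (SE) from MEF2A to YAP5SA (edgeR adjusted p = 0.0205), and the call was lost without any of 5 libraries. Against Control its fold change was 0.69 ± 0.51 with YAP5SA and -1.46 ± 0.48 with MEF2A (edgeR adjusted p = 0.435 and 0.606).

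Ect2, the exchange factor that activates RhoA at the cell equator (ENSMUSG00000027699, chr3:27097222-27153878), stood at 52.7, 33.5, 11.3, 83.4 and 52.9 CPM in Controls 1 to 5, 24.1, 9.24, 31 and 11.5 CPM in MEF2A 1 to 4, 74, 75.8 and 37.6 CPM in YAP5SA 1 to 3 and 80.9 and 59 CPM with both viruses. All MEF2A libraries were below all YAP5SA libraries, and the Controls reached from the MEF2A range to above the YAP5SA range. Means were 46.7 ± 26.7 (SD, n = 5), 19 ± 10.4 (n = 4), 62.5 ± 21.5 (n = 3) and 69.9 ± 15.5 (n = 2). Its difference between YAP5SA and MEF2A, 1.71 ± 0.63 on the log2 scale, did not pass (edgeR adjusted p = 0.0929), the single cytokinesis member of which this was so. Against Control it was 0.42 ± 0.61 with YAP5SA and -1.30 ± 0.55 with MEF2A (edgeR adjusted p = 0.733 and 0.667).

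Racgap1, the GTPase-activating subunit of centralspindlin whose promoter is printed above (ENSMUSG00000023015, chr15:99620496-99651656), stood at 27.2, 25, 9.02, 52.3 and 36.5 CPM in Controls 1 to 5, 10.6, 8.61, 13.1 and 8.14 CPM in MEF2A 1 to 4, 33.6, 28.4 and 38 CPM in YAP5SA 1 to 3 and 27.2 and 24.9 CPM with both viruses. The 4 MEF2A libraries lay close together, the YAP5SA libraries were all above them, and Control 3 fell inside the MEF2A range. Means were 30.02 ± 15.9 (SD, n = 5), 10.1 ± 2.25 (n = 4), 33.3 ± 4.85 (n = 3) and 26.1 ± 1.59 (n = 2). It rose by 1.76 ± 0.39 on the log2 scale from MEF2A to YAP5SA (edgeR adjusted p = 0.00763), while against Control the fold change was 0.22 ± 0.38 with YAP5SA and -1.54 ± 0.36 with MEF2A (edgeR adjusted p = 0.774 and 0.356).

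Kif23, the motor subunit of centralspindlin (ENSMUSG00000032254, chr9:61915905-61946774), stood at 24.4, 19.3, 3.92, 33 and 24.2 CPM in Controls 1 to 5, 11.1, 6.3, 5.42 and 4.68 CPM in MEF2A 1 to 4, 30.4, 26.2 and 32.4 CPM in YAP5SA 1 to 3 and 34 and 21.8 CPM with both viruses. Control 3 was the lowest of all libraries, the MEF2A libraries came next, and YAP5SA libraries and those with both viruses were well above. Means were 21 ± 10.7 (SD, n = 5), 6.86 ± 2.87 (n = 4), 29.7 ± 3.15 (n = 3) and 27.9 ± 8.62 (n = 2). Kif23 rose by 2.11 ± 0.50 on the log2 scale from MEF2A to YAP5SA (edgeR adjusted p = 0.0145). Its fold change against Control was 0.44 ± 0.48 with YAP5SA and -1.66 ± 0.47 with MEF2A (edgeR adjusted p = 0.625 and 0.595).

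Prc1 bundles the microtubules of the central spindle (ENSMUSG00000038943, chr7:80294450-80316259), and its exons overlap Rccd1 on the other strand. Its level was 3.51, 5.22, 3.18, 12.9 and 8.01 CPM in Controls 1 to 5, 2.83, 3.93, 5.04 and 4.74 CPM in MEF2A 1 to 4, 12.3, 7 and 9.82 CPM in YAP5SA 1 to 3 and 10.6 and 8.23 CPM with both viruses. MEF2A libraries were below YAP5SA libraries, and 3 Controls were as low as MEF2A or near it. Means were 6.57 ± 4.04 (SD, n = 5), 4.14 ± 0.987 (n = 4), 9.72 ± 2.66 (n = 3) and 9.43 ± 1.69 (n = 2). It rose by 1.37 ± 0.43 from MEF2A to YAP5SA on the log2 scale (edgeR adjusted p = 0.0379), a call lost without any of 9 libraries, and was 0.78 ± 0.42 and -0.59 ± 0.38 against Control with YAP5SA and MEF2A (edgeR adjusted p = 0.26 and 0.768).

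Aurkb encodes Aurora B, the kinase of the chromosomal passenger complex that corrects attachments and later controls abscission (ENSMUSG00000020897, chr11:69045647-69051664). It stood at 4.19, 8.74, 3.84, 18.2 and 17.7 CPM in Controls 1 to 5, 5.34, 3.93, 6.57 and 5.04 CPM in MEF2A 1 to 4, 22.1, 14.5 and 27.2 CPM in YAP5SA 1 to 3 and 14.1 and 11.7 CPM with both viruses. Controls fell into low values in 1, 2 and 3 and high values in 4 and 5, and the YAP5SA libraries were all above the MEF2A libraries. Means were 10.5 ± 7.03 (SD, n = 5), 5.22 ± 1.09 (n = 4), 21.3 ± 6.36 (n = 3) and 12.9 ± 1.7 (n = 2). Aurkb rose by 2.11 ± 0.43 on the log2 scale from MEF2A to YAP5SA (edgeR adjusted p = 0.00372), and held that call without any single library. Against Control it was 1.23 ± 0.41 with YAP5SA (edgeR adjusted p = 0.066), the highest of the 6 but short of the threshold, and -0.88 ± 0.39 with MEF2A (edgeR adjusted p = 0.667).

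**Figure D4:**
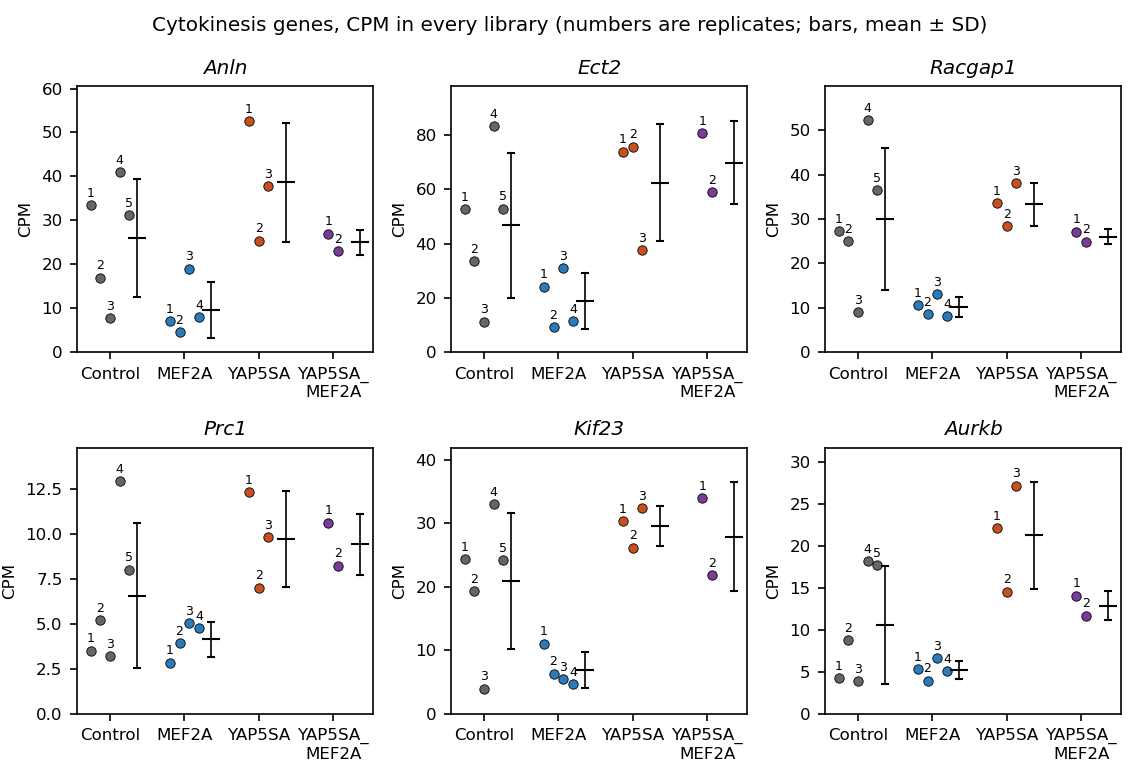
Points are CPM of the 6 cytokinesis genes in each library, numbered by replicate, and bars are the group mean and SD. In each panel the 3 YAP5SA points lie above the 4 MEF2A points, and Control 3 lies at or near the MEF2A level.

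Among the G2/M regulators, 3 of 8 rose from MEF2A to YAP5SA and 0 of 8 were called against Control with either virus. Cdk1, the kinase that drives entry into mitosis, stood at 26, 14.2, 8.94, 44.8 and 24.1 CPM in Controls 1 to 5, 9.91, 4.49, 10.3 and 8.08 CPM in MEF2A 1 to 4, 24.3, 24.4 and 26.9 CPM in YAP5SA 1 to 3 and 21.5 and 17.2 CPM with both viruses. The YAP5SA values were tightly grouped, near the middle of the Controls and above all MEF2A values. Cdk1 rose by 1.68 ± 0.41 on the log2 scale (edgeR adjusted p = 0.0129) and was -1.50 ± 0.37 in MEF2A against Control (edgeR adjusted p = 0.458). Ccnb1, its cyclin B1 partner, stood at 14.4, 10.04, 1.1, 32.4 and 17.8 CPM in Controls 1 to 5, 3.76, 2.81, 6.05 and 3.4 CPM in MEF2A 1 to 4, 17.8, 12.4 and 16.8 CPM in YAP5SA 1 to 3 and 13.6 and 12.1 CPM with both viruses. Control 3 was the lowest library and Control 4 the highest, and the YAP5SA values were above the MEF2A values. Its difference of 2.06 ± 0.69 between YAP5SA and MEF2A did not pass (edgeR adjusted p = 0.0644). Ccnb2, cyclin B2 and the most abundant of the 8 per kilobase (5.65 CPM per kb over 14 libraries), stood at 10.9, 6.52, 3.18, 18.8 and 9.28 CPM in Controls 1 to 5, 7.19, 3.43, 4.8 and 3.34 CPM in MEF2A 1 to 4, 10.7, 12.2 and 13.8 CPM in YAP5SA 1 to 3 and 9.54 and 7.46 CPM with both viruses. MEF2A values were below the YAP5SA values, and it rose by 1.38 ± 0.46 (edgeR adjusted p = 0.049), a call lost without any of 10 libraries. Foxm1, the transcription factor that switches on many genes of this phase, stood at 22.9, 14.1, 8.53, 50.2 and 29.2 CPM in Controls 1 to 5, 11.9, 11.3, 19.1 and 10.3 CPM in MEF2A 1 to 4, 38.2, 30.9 and 42.1 CPM in YAP5SA 1 to 3 and 37.5 and 24.4 CPM with both viruses. Foxm1 was higher in all YAP5SA than in all MEF2A libraries and rose by 1.57 ± 0.43 (edgeR adjusted p = 0.024). Plk1, the Polo kinase that acts from mitotic entry to cytokinesis, stood at 21, 10.4, 4.69, 15.3 and 16.9 CPM in Controls 1 to 5, 9.64, 7.61, 9.64 and 12.5 CPM in MEF2A 1 to 4, 9.19, 14.2 and 12.5 CPM in YAP5SA 1 to 3 and 13 and 13.7 CPM with both viruses. Its groups overlapped in every comparison with YAP5SA, and the log2 difference from MEF2A was 0.28 ± 0.39 (edgeR adjusted p = 0.681). Nek2, a centrosome kinase, was the least abundant of the 8, at 0.91 CPM per kb.

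Of the spindle checkpoint and anaphase genes, 3 of 7 rose from MEF2A to YAP5SA. Ube2c, the ubiquitin-conjugating enzyme of the anaphase-promoting complex, stood at 6.01, 7.95, 0.612, 8.07 and 7.78 CPM in Controls 1 to 5, 1.96, 1.37, 1.82 and 1.52 CPM in MEF2A 1 to 4, 11.7, 6.03 and 15 CPM in YAP5SA 1 to 3 and 6.86 and 3.2 CPM with both viruses. It was lowest in Control 3, next lowest in the 4 MEF2A libraries, and higher in every other library. Ube2c rose by 2.70 ± 0.61 on the log2 scale (edgeR adjusted p = 0.00784), with exons that overlap Tnnc2, a muscle troponin gene on the other strand. Ttk, the checkpoint kinase MPS1, stood at 26.6, 17.6, 3.43, 27.7 and 15.9 CPM in Controls 1 to 5, 6.37, 4.49, 4.89 and 3.04 CPM in MEF2A 1 to 4, 18.9, 11.9 and 13.8 CPM in YAP5SA 1 to 3 and 10.9 and 10.02 CPM with both viruses. Its YAP5SA values were above all MEF2A values and inside the Control range, and it rose by 1.61 ± 0.47 (edgeR adjusted p = 0.0295), a call lost without any of 6 libraries. Mad2l1, the checkpoint protein MAD2, stood at 9.98, 13.7, 0.775, 10.3 and 7.59 CPM in Controls 1 to 5, 3.81, 3.18, 4.37 and 4.01 CPM in MEF2A 1 to 4, 14.1, 11.7 and 13.9 CPM in YAP5SA 1 to 3 and 9.39 and 7.14 CPM with both viruses. MEF2A values were narrow and low, Control 3 was lower still, and Mad2l1 rose by 1.73 ± 0.56 (edgeR adjusted p = 0.0468), a call lost without any of 11 libraries. Per kilobase, Cdc20, an activator of the anaphase-promoting complex, was highest at 7.4 CPM per kb and Mad2l1 lowest at 0.97. Bub1, Bub1b, Cdc20 and Espl1 had fold changes between 1.18 and 1.44 in the same comparison and did not pass.

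Cenpa, the histone H3 variant that marks centromeres, was the single member called against Control with YAP5SA. It stood at 208, 127, 69.5, 225 and 208 CPM in Controls 1 to 5, 139.8, 97.7, 159.5 and 154 CPM in MEF2A 1 to 4, 61.4, 84.1 and 64.1 CPM in YAP5SA 1 to 3 and 80.2 and 66.8 CPM with both viruses. The 3 YAP5SA libraries and both with both viruses were below all MEF2A libraries and below every Control but Control 3. Means were 168 ± 66.8 (SD, n = 5), 138 ± 28 (n = 4), 69.9 ± 12.4 (n = 3) and 73.5 ± 9.43 (n = 2). Cenpa fell in YAP5SA against Control, with a log2 fold change of -1.23 ± 0.33 (edgeR adjusted p = 0.0265). That call was lost without Control 1 (-1.06, edgeR adjusted p = 0.082), without YAP5SA 1 (-1.17, edgeR adjusted p = 0.116), without YAP5SA 3 (-1.10, edgeR adjusted p = 0.182), and when scaled by library totals (-0.57, edgeR adjusted p = 0.459). It was also lost with a sex term (-1.10, edgeR adjusted p = 0.0511), without Controls 1 and 2 (-1.14, 0.115), without these and YAP5SA 3 (-0.80, 0.704), in batch 2 alone (-1.39, 0.347) and with replicate numbers in place of batches (-0.95, 0.108). Its other differences did not pass: -0.95 ± 0.33 in YAP5SA against MEF2A, -0.85 ± 0.40 in both viruses against MEF2A and -1.13 ± 0.39 in both viruses against Control (edgeR adjusted p = 0.0655, 0.318 and 0.187). With 1 library left out, the first reached an edgeR adjusted p as low as 0.00656 and the last 0.0186. The difference of both viruses against MEF2A did not pass with any 1 library left out.

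Set beside the other 46 genes, Cenpa took a share of the mitotic transcripts that did not overlap between Controls, MEF2A and the groups with YAP5SA, a measure chosen after its values were seen. It made up 10.7% to 15.6% of the members' summed CPM in Controls, 18.8% to 22.5% in MEF2A, 4.48% to 7.04% in YAP5SA and 6.32% to 6.88% with both viruses. The highest Control was Control 3, at 15.6%, and the other 4 Controls ran from 10.7% to 14.3%. How many other genes have shares that separate in this way was not counted. The share also depends on the sum of the other members. In MEF2A against Control the log2 fold change of Cenpa was -0.28, against a member median of -1.28. The median correlation of Cenpa with the other members was 0.13 over 14 libraries, the lowest of the 47, and 0.81 after group means were taken off. At its promoter, printed above, the TTTGAA letters were present. Per kilobase it was the most abundant kinetochore gene, at 28.6 CPM per kb in Controls and 11.9 in YAP5SA, and Ndc80, which couples kinetochores to microtubules, was the least at 1.4 over all libraries. Cenpe, Cenpf, Ndc80 and Nuf2 had fold changes of 0.58 to 1.51 in YAP5SA against MEF2A, and none of these 4 passed.

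**Figure D5:**
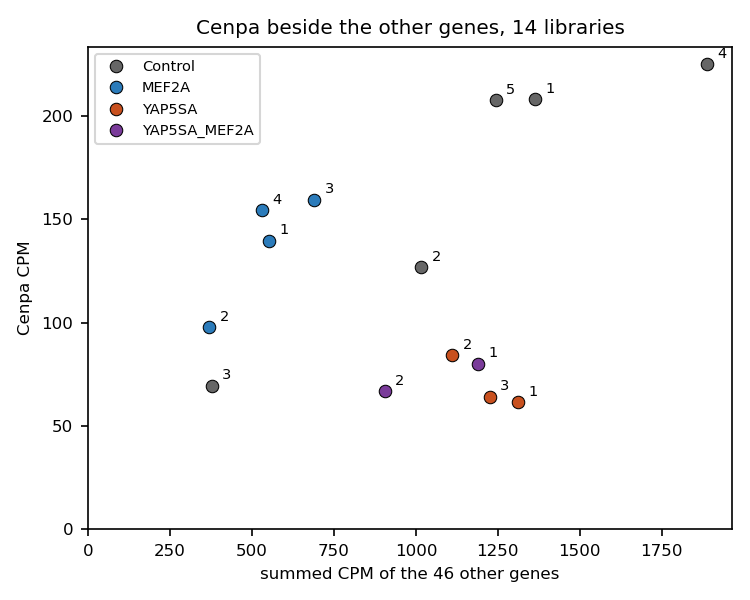
Each point is a library, numbered by replicate, with the summed CPM of the other 46 genes on the x axis and the CPM of Cenpa on the y axis. YAP5SA points and those with both viruses lie at 61.4 to 84.1 CPM of Cenpa, below Controls and MEF2A libraries with an equal or lower sum of the other genes, except Control 3 at 69.5 CPM.

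Of the spindle genes, 6 of 12 rose from MEF2A to YAP5SA, and 1 of them had the highest fold change of the 47. Kif18b, a kinesin that shortens astral microtubules, stood at 7.25, 6.91, 0.775, 7.53 and 9.13 CPM in Controls 1 to 5, 1.47, 0.998, 2.4 and 0.669 CPM in MEF2A 1 to 4, 13.3, 5.37 and 12.8 CPM in YAP5SA 1 to 3 and 10.7 and 6.65 CPM with both viruses. Control 3 and the MEF2A libraries were the 5 lowest, and Kif18b rose by 2.92 ± 0.64 on the log2 scale (edgeR adjusted p = 0.00655). Kif15, a plus-end motor that helps to keep the spindle bipolar, stood at 8.84, 13.8, 4, 26.7 and 20.9 CPM in Controls 1 to 5, 6.15, 3.06, 7.63 and 2.37 CPM in MEF2A 1 to 4, 28, 17.9 and 22.5 CPM in YAP5SA 1 to 3 and 22.3 and 15.9 CPM with both viruses. All MEF2A values were below all YAP5SA values, and Kif15 rose by 2.29 ± 0.54 (edgeR adjusted p = 0.0124). Kif11, the motor that pushes spindle poles apart, stood at 13.4, 7.3, 2.73, 18.1 and 9.82 CPM in Controls 1 to 5, 2.07, 1.44, 3.65 and 4.74 CPM in MEF2A 1 to 4, 11, 8.28 and 7.32 CPM in YAP5SA 1 to 3 and 9.15 and 8.68 CPM with both viruses. Its YAP5SA values lay inside the Control range and above all MEF2A values, and it rose by 1.70 ± 0.53 (edgeR adjusted p = 0.0367).

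Kif20a, a kinesin of the central spindle whose exons overlap Cdc23 on the other strand, stood at 1.59, 1.7, 1.51, 11.6 and 7.97 CPM in Controls 1 to 5, 3.1, 1.62, 3.31 and 1.28 CPM in MEF2A 1 to 4, 9.27, 9.2 and 9.72 CPM in YAP5SA 1 to 3 and 11.1 and 7.62 CPM with both viruses. Controls 1, 2 and 3 were as low as MEF2A, Controls 4 and 5 were near the YAP5SA values, and it rose by 2.13 ± 0.61 from MEF2A to YAP5SA (edgeR adjusted p = 0.0277). Kif20b, a related kinesin active in late division, stood at 11.1, 3.39, 4.61, 22.1 and 15.1 CPM in Controls 1 to 5, 4.68, 2.56, 7.49 and 4.32 CPM in MEF2A 1 to 4, 14.3, 11.7 and 16.9 CPM in YAP5SA 1 to 3 and 11.5 and 11 CPM with both viruses. YAP5SA values were above all MEF2A values, and Kif20b rose by 1.74 ± 0.47 (edgeR adjusted p = 0.0184). Tpx2, the spindle factor that activates Aurora A, stood at 16.9, 15.6, 3.88, 21.6 and 18.6 CPM in Controls 1 to 5, 7.4, 5.62, 7.97 and 7.54 CPM in MEF2A 1 to 4, 17.8, 14.6 and 25.2 CPM in YAP5SA 1 to 3 and 17.4 and 13.2 CPM with both viruses. MEF2A values were narrow and below YAP5SA, and Tpx2 rose by 1.44 ± 0.40 (edgeR adjusted p = 0.023), a call lost without any of 6 libraries. Per kilobase the highest spindle gene was Kif2c, a microtubule-depolymerizing kinesin, at 3.92 CPM per kb, and the lowest was Kif14, a midbody kinesin, at 0.63. The 6 spindle genes that did not pass had fold changes from 0.72 (Aspm) to 1.90 (Hmmr).

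Of the passenger proteins that hold Aurora B, 2 of 3 rose from MEF2A to YAP5SA. Birc5, survivin, stood at 13, 14.6, 6.16, 18 and 12.3 CPM in Controls 1 to 5, 3.92, 4.74, 7.92 and 5.17 CPM in MEF2A 1 to 4, 14.9, 11.9 and 15.3 CPM in YAP5SA 1 to 3 and 11.9 and 8.07 CPM with both viruses. MEF2A values were below YAP5SA, and Birc5 rose by 1.40 ± 0.35 on the log2 scale (edgeR adjusted p = 0.0137). Cdca8, borealin, stood at 13.8, 2.48, 4.53, 20.7 and 14.2 CPM in Controls 1 to 5, 5.17, 3.81, 2.74 and 5.41 CPM in MEF2A 1 to 4, 15.4, 13.2 and 19 CPM in YAP5SA 1 to 3 and 14.3 and 8.43 CPM with both viruses. Controls 2 and 3 were as low as MEF2A, all YAP5SA values were above it, and Cdca8 rose by 1.92 ± 0.53 (edgeR adjusted p = 0.0233). Incenp, the scaffold of the complex and its most abundant member per kilobase at 13.1 CPM per kb, against 1.98 for Cdca8, was at 0.96 ± 0.34 and did not pass (edgeR adjusted p = 0.0712).

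Of the chromosome structure genes, 2 of 6 rose. Top2a, the topoisomerase that untangles sister chromatids, stood at 28, 19, 4.2, 43.3 and 28.7 CPM in Controls 1 to 5, 10.3, 5.68, 11.7 and 9.18 CPM in MEF2A 1 to 4, 45.1, 31.7 and 44.3 CPM in YAP5SA 1 to 3 and 32 and 23.6 CPM with both viruses. YAP5SA 1 and 3 were above every Control and all YAP5SA values above all MEF2A values, and Top2a rose by 2.17 ± 0.53 on the log2 scale (edgeR adjusted p = 0.0175). Ncaph, a condensin I subunit, stood at 16.8, 11.2, 6.69, 28.6 and 18.9 CPM in Controls 1 to 5, 10.7, 4.99, 7.29 and 5.41 CPM in MEF2A 1 to 4, 16.7, 20.3 and 16.5 CPM in YAP5SA 1 to 3 and 18.2 and 18.6 CPM with both viruses. MEF2A values were below YAP5SA, and Ncaph rose by 1.33 ± 0.39 (edgeR adjusted p = 0.0291), a call lost without any of 6 libraries. Mki67, the coat protein of mitotic chromosomes known as the proliferation marker Ki-67, stood at 221, 155, 46.4, 359.7 and 195 CPM in Controls 1 to 5, 70.7, 32.8, 112 and 85.1 CPM in MEF2A 1 to 4, 134, 137 and 147 CPM in YAP5SA 1 to 3 and 164 and 105 CPM with both viruses. Its YAP5SA values were above all MEF2A values and below every Control but Control 3. The Mki67 difference between YAP5SA and MEF2A was 1.00 ± 0.54 (edgeR adjusted p = 0.249), and that between MEF2A and Control -1.39 ± 0.49 (edgeR adjusted p = 0.612). Per kilobase, Smc4, a core subunit of condensin, was the most abundant of all 47 members at 30.5 CPM per kb, and Ncapg, another condensin subunit, the least at 0.61.

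Hearts with both viruses had a member sum of 1269 and 972 CPM, against 1195 to 1372 CPM with YAP5SA alone. edgeR called 0 of 47 members between these 2 groups, 0 at an unadjusted p under 0.05, and DESeq2 and limma-voom called 0, while edgeR called 0% of all genes. Of all genes 1.41% were higher and 1.46% lower at an unadjusted p under 0.05. The median log2 fold change of the members was -0.18 there, against 0.010 over all genes, and 0.0023 against 0.19 when scaled by library totals. It ran from -0.43 to -0.019 with 1 library left out and was -0.92 with a sex term, which in this comparison rests on the other groups, because all libraries of one group are male and all of the other female. Every library with both viruses was below every YAP5SA library in 11 members, 2 of them cytokinesis members (Racgap1 and Aurkb), and above in 1 (Cenpf), against 8.79% and 11.2% of all genes. Their fold changes were -0.26 ± 0.47 and -0.47 ± 0.52, so with 2 libraries the SE was as large as the difference or larger.

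Against MEF2A alone, hearts with both viruses had a median log2 fold change of 1.21 over members and 1.65 over the cytokinesis members, against 0.05 over all genes. edgeR called 0 of 47, where 2.32% of all genes were called, and DESeq2 called 12, with 5.88% of all genes called, and limma-voom 0. At an unadjusted p under 0.05, 21 members were higher and 1 lower, against 8.72% and 6.73% of all genes. Both libraries were above every MEF2A library in 39 of 47 members, the 6 cytokinesis members among them, a pattern of 22.8% of all genes. The cytokinesis fold changes were 1.66 ± 0.64 (Anln), 1.88 ± 0.72 (Ect2), 1.49 ± 0.45 (Racgap1), 1.49 ± 0.49 (Prc1), 1.92 ± 0.57 (Kif23) and 1.64 ± 0.49 (Aurkb), with edgeR adjusted p from 0.0991 to 0.236. Without Control 3, 18 of 47 were called, with 3.8% of all genes called.

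Against Control, both viruses gave a member median of -0.04, which turned to 0.82 when scaled by library totals (0.84 over all genes), and edgeR called 0 of 47, where 1.36% of all genes were called, 1.16% higher. At an unadjusted p under 0.05, 1 member was lower, Cenpa, against 5.45% of all genes, and DESeq2 and limma-voom called 0. The interaction asks whether MEF2A changed a gene differently with YAP5SA present than without it. Its estimate was above 0 in 47 of 47 members, with a median of 0.99 against 0.01 over all genes, but edgeR, DESeq2 and limma-voom each called 0 members and edgeR called 0% of all genes. At an unadjusted p under 0.05, edgeR had 4 members higher and 0 lower, against 1.15% and 1.3% of all genes. The interaction shares the Controls with the comparison of MEF2A against Control, and Control 3 enters both.

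Genes outside the set but in the same processes were listed by name, with earlier results of these data known. Neither these lists nor that of DNA replication below is thus independent support. Of 44 other mitosis genes, 10 rose (22.7%) and 1 fell (2.27%) in YAP5SA against MEF2A, with a median of 1.39, where 7.77% of all genes rose, 7.12% fell and the median was 0.08. Ckap2l, a spindle pole protein, rose by 2.65 ± 0.60 (edgeR adjusted p = 0.00716), and Kif18a, a kinesin that aligns chromosomes, by 1.71 ± 0.42 (edgeR adjusted p = 0.0123). Mybl2, the MYB subunit of the MYB-MuvB complex, rose by 1.07 ± 0.27 (edgeR adjusted p = 0.0133), and Lmnb1, lamin B1, by 1.73 ± 0.45 (edgeR adjusted p = 0.0159). Ncapd2, a condensin subunit, fell (log2 fold change -0.79 ± 0.20, edgeR adjusted p = 0.0128) and also fell in YAP5SA against Control (-0.68 ± 0.20, edgeR adjusted p = 0.034), unlike the member condensin gene Ncaph. Of 12 other cytokinesis genes 5 rose (41.7%), with a median of 0.95. They were Cep55, which brings the abscission machinery to the midbody (1.99 ± 0.46, edgeR adjusted p = 0.0098), Iqgap3 (1.85 ± 0.53), Pdcd6ip (0.63 ± 0.19), Sept9 (1.01 ± 0.32) and Arhgap11a (2.32 ± 0.71). Pdcd6ip, the abscission factor ALIX, also rose against Control with YAP5SA (0.82 ± 0.19, edgeR adjusted p = 0.0111), the single gene of these lists to do so.

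Genes of DNA replication, which act before mitosis, had 5 of 24 rise (20.8%) and 0 fall in YAP5SA against MEF2A, with a median of 0.58. They were the licensing factor Cdt1 (1.15 ± 0.21, edgeR adjusted p = 0.00206), the ribonucleotide reductase subunits Rrm2 (2.40 ± 0.45) and Rrm1 (1.17 ± 0.22), the cyclin Ccne1 (1.79 ± 0.38) and the polymerase clamp Pcna (1.76 ± 0.41). In MEF2A against Control edgeR called 0 of the 44, 12 and 24 genes, and 25, 5 and 13 were lower at an unadjusted p under 0.05 (56.8%, 41.7% and 54.2%, against 3.85% of all genes). With both viruses against MEF2A, Ckap2l rose (2.71 ± 0.69, edgeR adjusted p = 0.0474). TTTGAA was in 19 of 34 promoters of the other mitosis genes (55.9%) and in 2 of 19 of the replication genes (10.5%), against 20.2% of all genes.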

How the data were processed

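PolyA-selected libraries that do not keep strand were made from PCM1-enriched heart nuclei and sequenced on a NovaSeq X Plus, per the labels. The authors deposited raw counts of reads, 1 row per Ensembl gene and 1 column for each of 14 libraries. STAR, limma and edgeR, with build GRCm38, are named in the submitters' processing notes; the counting program, annotation and versions are not given in the sources used here. Depth is the total count per library, and small counts carry counting error.

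Symbols, exon lengths and overlaps came from GENCODE vM21 by gene ID. Genes were kept by filterByExpr (minimum count 10, total 15). Analyses used R 4.3.3, edgeR 4.0.16, limma 3.58.1 and DESeq2 1.42.0. CPM used TMM-scaled totals, and log2 CPM a prior count of 2. The test was edgeR's robust quasi-likelihood F-test over all 14 libraries, with group and batch, two-sided. Genes with a Benjamini-Hochberg adjusted p below 0.05 were called. SE is the fold change divided by the root of F. The fits were tested on simulated data. Groups, numbers and batches came from the labels.

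Members and lists were chosen with earlier results of these data known. The rule for named genes took the 6 cytokinesis members, Mki67, Top2a, Cdk1, Ccnb1, Plk1 and every called member, the highest and lowest per kilobase of each role, and up to 5 called genes of each other list. Alternatives were scaling by RLE or by library totals, a minimum count of 30 or none, limma-voom, DESeq2, replicate numbers instead of batches, a model lacking batch, each batch alone, removal of mitochondrially encoded genes, and each library left out. A sex term, and fits lacking Controls 1 and 2 with or without YAP5SA 3, were chosen after seeing the data.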

Additional observations from a re-analysis of the deposited data

Results flagged for a closer look

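Kif18b stood apart in Control 3, at 0.775 CPM, where the other 4 Controls held 6.91 to 9.13 CPM. Ube2c also stood apart in Control 3, at 0.612 CPM, where the other 4 Controls held 6.01 to 8.07 CPM. In both the gap to the nearest Control was larger, relative to the range of the group, than Dixon's 95% critical value. There were 56 groups tested, from 26 members and 2 sums, and chance alone gives about 1 such value in 20 groups.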

How the results depend on the processing

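Percentages in this paragraph are the share of all genes called under the same setting. Members called in YAP5SA against MEF2A (21, 14.9%) numbered 33 with library totals (8.92%), 39 with no filter (11.5%), 34 with DESeq2 (21.8%) and 12 with limma-voom (17.6%). They numbered 0 without Controls 1 and 2 and YAP5SA 3 (4.89%, median log2 fold change 1.69). With 1 library left out they numbered 1 to 41 (4.76% to 21.6%, medians 1.36 to 1.61). Among the called members, 1 was lower with no filter, with DESeq2, with no batch term, without Control 2 and without Control 3. Under the other settings all were higher. Batch 2 alone, with 1 YAP5SA library, gave a median of 1.36. In MEF2A against Control (0, 0.0167%) members called numbered 30 with no filter (1.21%), 10 with DESeq2 (0.467%) and 17 in batch 1 alone (2.96%). With 1 library left out they numbered 0 to 27 (0% to 0.571%). In YAP5SA against Control (1, 9.86%) members called numbered 2 with no filter (8.59%), DESeq2 (16.4%) or batch 1 alone (9.33%). They numbered 4 with a sex term (11.8%), all higher, with Cenpa not among them. They numbered 0 without Controls 1 and 2 (11.5%), 0 without these and YAP5SA 3 (0.428%), and 0 to 2 with 1 library left out (3.08% to 16.7%). In batch 2 alone the members' median log2 fold change was 0.19. In both viruses against Control (0, 1.36%) members called numbered 1 with no filter (3.16%) and 2 in batch 1 alone (8.58%). With 1 library outside the group with both viruses left out, they numbered 0 to 1 (0.791% to 2.01%). In both viruses against MEF2A (0, 2.32%) members called numbered 8 with library totals (2.39%), 20 with no filter (3.73%) and 12 with DESeq2 (5.88%). They numbered 1 with no batch term (2.92%) and 7 in batch 1 alone (1.87%). With 1 library outside the group with both viruses left out, they numbered 0 to 18 (0.947% to 3.8%). The interaction (0, 0%) gave 3 with no filter (0.206%). Both viruses against YAP5SA gave 0 under each alternative that kept both libraries with both viruses (0% to 1.27%). The cause of these moves was not tested.

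Same-numbered libraries of different groups did not deviate together (16 pairs, r from -0.19 to 0.096, 0 over 0.1), and 4 of 14 libraries matched their own number best. No pairing by number was seen, but deviations from the means of groups of 2 to 5 libraries cannot exclude it. The replicate block in place of batch gave 0 calls in YAP5SA against Control (Cenpa at -0.95, edgeR adjusted p = 0.108), with 5.21% of all genes called. It gave 20 in YAP5SA against MEF2A, with 8.75% of all genes called, and left the other counts at 0.

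Of 1638 values for 59 single-gene fold changes, 1387 kept direction and side of the threshold, 164 lost a call, 72 gained one and 15 changed sign. All 164 losses fell among the 21 members called in YAP5SA against MEF2A (588 values) and Cenpa in YAP5SA against Control (28 values). The other values belonged to fold changes that were not called at the start and could not lose a call. In YAP5SA against Control, Ect2 was -0.39 in batch 2 alone and Kif23 -0.30 without Controls 1 and 2 and YAP5SA 3. In both viruses against Control, Racgap1 was 0.77 with library totals, 0.094 with limma-voom, 0.12 with the replicate block and -0.20 to 0.12 with 1 library left out. There Anln was -0.062 with no batch term, -0.050 in batch 1 alone and -0.22 with a sex term, Ect2 was -0.15 with a sex term, and Kif23 was -0.29 with a sex term, -0.32 without Controls 1 and 2 and YAP5SA 3, and -0.090 to 0.56 with 1 library left out. Precision is limited by 2 to 5 libraries a group and a biological coefficient of variation of 0.503, and depth by member counts as low as 6 in a library.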
